A study of Mus musculus with 27 samples.

Results

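The genes described here are 10 that either carry out defences controlled by the transcription factor NRF2 or handle heme and iron: Slc7a11, Gclc, Gclm, Txnrd1, Srxn1, Nqo1, Hmox1, Blvrb, Fth1 and Ftl1. They were taken by symbol from the table of read counts, in which 10 of 37095 gene rows matched. Messenger RNA was measured in 27 mouse libraries from brain, from meninges (the membranes under the skull) and from the skullcap, called skull below. Each tissue gave 3 libraries without UVB (control), 3 taken 0.5 h and 3 taken 24 h after UVB light of 311 nm and 2 mW fell on the interparietal bone, the rear bone of the skullcap. By its title the series concerns cranial light, immune cells at the brain's borders and recovery from stroke; stroke and non-cranial irradiation were not analysed here. Per the labels, blood was rinsed off the skullcap with PBS and the meninges were scraped from it. The labels name no strain, age or genotype for any group and do not say whether controls were sham-handled, at which hour tissues were taken, or whether replicates were separate animals. Each p-value therefore measures only the spread between these samples, which may be technical.

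NRF2, the product of Nfe2l2, is held at a low level by the adaptor KEAP1, which passes it to a ubiquitin ligase. Oxidants and electrophiles modify KEAP1, NRF2 then accumulates, pairs with a small MAF protein (MAFF, MAFG or MAFK) on antioxidant response elements and switches on enzymes that make glutathione, recycle thioredoxin and reduce quinones. BACH1 competes for the same elements until it binds heme, so that Hmox1 answers to heme as well as to oxidants. Heme oxygenase opens the heme ring and frees iron, biliverdin reductases reduce the biliverdin and ferritin stores the iron, a sequence of importance in macrophages that take up red cells and in bone marrow where red cells are made.

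Both ferritin messages also carry an iron-responsive element near their 5′ end, a hairpin through which iron regulatory proteins hold back translation when iron is scarce, so a message level does not give the protein level. The hairpin's loop and upper stem, in capitals below and with any base allowed at the only position where the capitals differ, were searched for on the transcribed strand in the first 200 bases of the lowest-numbered GENCODE transcript (M21, GRCm38) of 21901 coding genes. The match was found in 2 of them (0.00913%), Fth1 and Ftl1, and is shown here because it marks what the 2 subunits share outside their coding sequence. As the pattern was set to cover both of these messages, their match was fixed in advance. The count is of this pattern, not of all iron-responsive elements. Each line gives 30 bases of exon 1, 5′ to 3′, with the matched letters in capitals; these lie at chromosome 19, 9982741 to 9982752, plus strand, in Fth1 and at chromosome 7, 45459787 to 45459798, minus strand, in Ftl1.
Fth1: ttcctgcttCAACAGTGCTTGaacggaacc
Ftl1: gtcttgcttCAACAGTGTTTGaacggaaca

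An antioxidant response element has the core TGACNNNGC, which was searched for on both strands in RefSeq windows (GRCm38.p6) from 250 bases before to 50 bases after each gene start. Of the 8 genes with a window, 3 held a match: Gclm at −134 and Txnrd1 at −92 from a start, and Srxn1 at 28 bases after it. Among all 32851 windows 12.4% held one, and 14% of 27025 genes had at least 1 such window, so the core is common and a match is a description of the letters, not of binding. Hmox1 and Gclc had no window in the table. The 8 genes had 12 windows in all, and Txnrd1 also had windows without a match. No window of Slc7a11, Nqo1, Blvrb, Fth1 or Ftl1 held the core. Of these, Slc7a11 was called at 24 h against control in brain, and Fth1 and Blvrb at 24 h against 0.5 h. The matches of Gclm and Txnrd1 are printed because both messages changed 24 h after irradiation; capitals mark the core, which reads GCNNNGTCA on the gene's strand. The Gclm stretch spans chromosome 3, 122245403 to 122245451, and the Txnrd1 stretch chromosome 10, 82859094 to 82859142, both plus strand.
Gclm: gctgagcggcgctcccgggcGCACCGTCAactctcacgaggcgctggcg
Txnrd1: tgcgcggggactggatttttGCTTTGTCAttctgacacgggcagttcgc

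The 27 libraries held 14.2 M to 27.3 M counts each. The largest total belonged to brain control 1 (the next was 18.2 M), which stood apart from the other brain controls for Hmox1, Blvrb and Ftl1. Levels are in CPM, a gene's counts per M counts of its library, on totals scaled by the TMM method within a tissue; levels set across tissues were scaled over all 27 libraries, and levels set between genes were also divided by kilobases of merged exon. Erythroid markers (12 of 13 in the table) summed to 24 to 48.5 CPM in brain, 1550 to 2410 in meninges and 3160 to 9620 in skull, and neutrophil markers to at most 13.7 in brain and 4820 to 11100 in skull. Brain control 1 held that 13.7, against at most 7.55 in the other brain libraries. It also had the highest osteoblast sum in brain, 138 CPM against at most 101. Its erythroid sum, 32.7 CPM, lay among those of the other brain libraries. The source of these sums was not tested. Osteoblast markers summed to 15200 to 37000 CPM in the libraries labelled meninges, choroid plexus markers to between 443 and 15800 and skeletal muscle markers to between 20.9 and 4670, unequal amounts of RNA typical of bone, choroid plexus and muscle. In tissue pieces, fewer cells of a type and less RNA per cell cannot be told apart.

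Without UVB, ferritin heavy chain Fth1 led by far on the per-length scale, at 318 ± 14.4 CPM per kilobase in brain, 361 ± 27.3 in meninges and 338 ± 31.9 in skull (mean ± SD, n = 3). No other of the 10 genes passed 37.6 ± 10.7, the level of Hmox1 in skull. The lowest levels were Slc7a11 in skull at 0.588 ± 0.584 and Blvrb in brain at 1.68 ± 0.553. The rank of Blvrb depends on the length used, as its merged exons span 2782 bases and its lowest-numbered transcript 1028. Both lengths are 1553 for Nqo1, which stood at 2.04 ± 0.411 in brain. Tissue levels differed by the edgeR quasi-likelihood test (Benjamini-Hochberg adjusted over all tested genes, threshold 0.05) for 6 of 10 between meninges and brain, 7 of 10 between skull and brain and 6 of 10 between skull and meninges. Across all genes tested, 70.5%, 75.6% and 48.2% were called in these comparisons, so the counts for the 10 genes are near the background. Untreated groups were apart for 8, 7 and 6 of the 10, against 73.5%, 78% and 53% of all genes.

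Blvrb and Hmox1 had mean levels lowest in brain and highest in skull. Blvrb, which encodes biliverdin reductase B, stood at 4.67 ± 1.54 CPM in brain, 27.8 ± 4.81 in meninges and 54.1 ± 8.73 in skull on the scale of all libraries. Its log2 difference was 2.54 ± 0.24 (SE) for meninges against brain (adjusted p = 2.81e-09) and 0.96 ± 0.22 for skull against meninges (adjusted p = 0.000911). Hmox1 followed the same order, at 8.35 ± 6.40, 36.7 ± 4.25 and 65.8 ± 18.8 CPM. Its log2 difference of skull against meninges, 0.84 ± 0.32, had an adjusted p of 0.0371 that rose to between 0.0537 and 0.152 without any 1 of meninges control 1, 2 or 3 or skull control 1 or 2, and to 0.0684 with no filter on low counts. The erythroid sums above follow the same order of tissues, but this is not particular to them. In control, neutrophil markers had mean sums of 7.78, 544 and 8200 CPM and osteoblast markers 99.9, 29200 and 74000 in brain, meninges and skull. Macrophage markers were highest in meninges (248, 1700 and 1040 CPM). The part of any of these cells in the levels of Blvrb and Hmox1 was not tested.

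The cystine transporter gene ran the other way. Slc7a11 stood at 66.8 ± 1.31 CPM in brain, 39.0 ± 2.06 in meninges and 8.19 ± 8.13 in skull, where control 2 alone held 16.2 CPM (scaled within skull) against 3.62 and 2.83. The log2 difference was −3.01 ± 0.41 for skull against brain and −2.23 ± 0.40 for skull against meninges (adjusted p = 1.39e-06 and 0.000115); without skull control 2, which moved both, they were −4.25 and −3.48. Nqo1 was highest in meninges (14.8 ± 1.19 CPM, against 3.17 ± 0.639 in brain and 5.84 ± 0.894 in skull), Txnrd1 highest in skull (120 ± 10.2, against 79.8 ± 2.84 and 81.2 ± 5.53), Gclc highest in meninges (86.9 ± 12.4, against 66.1 ± 4.78 and 62.1 ± 3.01) and Srxn1 highest in brain (83.1 ± 5.72, against 56.4 ± 4.58 and 51.1 ± 15.3). Neighbouring pairs that did not differ by the test were brain and meninges for Slc7a11 (adjusted p = 0.0676, and 0.0274 by DESeq2) and Txnrd1, brain and skull for Gclc, and meninges and skull for Srxn1. Gclm (59.5 to 69.7 CPM) and Fth1 (1105 to 1251 CPM) had no call between tissues; for Gclm between skull and meninges the adjusted p was 0.0618, and 0.0335 under RLE scaling.

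**Figure D1:**
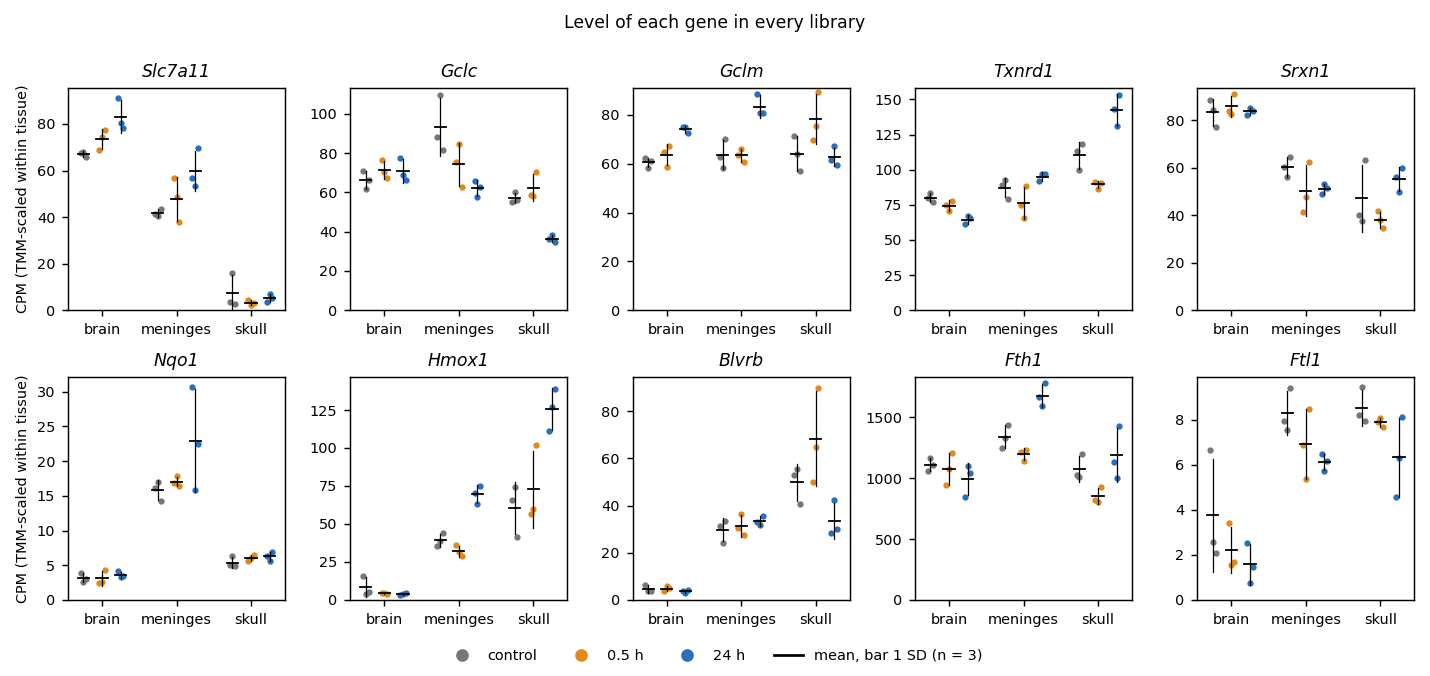
Level of each of the 10 genes in every library, in TMM-scaled CPM on a linear axis from 0, by tissue (x axis) and group (grey control, orange 0.5 h, blue 24 h); horizontal marks are means and vertical bars 1 SD of 3 libraries. Hmox1 at 24 h lies above control in meninges and skull without overlap, Gclc lies below it in both, and single control libraries stand apart for Hmox1 and Ftl1 in brain and for Slc7a11 and Srxn1 in skull.

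At 0.5 h none of the 10 genes passed the edgeR test in any tissue. The background was 0.0055% of 18172 genes called in brain, 0.874% of 18542 in meninges and 4.9% of 17426 in skull. At an unadjusted p under 0.05 there were 0, 2 and 3 of the 10, and DESeq2 called 0, 0 and 1. That call was Txnrd1 in skull, at 91.4, 86.4 and 90.8 CPM at 0.5 h against 113, 99.6 and 118 in control, a log2 fold change of −0.30 ± 0.09 (adjusted p = 0.0709 by edgeR and 0.0399 by DESeq2). The groups were apart without overlap for 1, 1 and 2 of the 10, against 11.5%, 20.8% and 27.6% of all genes. The median log2 fold change of the 10 was −0.0114 in brain, −0.175 in meninges and 0.00585 in skull, against −0.00108, 0.00887 and 0.000813 over all genes tested.

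At 24 h against control, 2 of 10 were called in brain, 3 of 10 in meninges and 3 of 10 in skull, where 2.62%, 8.42% and 20.9% of all genes tested were called. Slc7a11 rose and Txnrd1 fell in brain, Hmox1 and Gclm rose and Gclc fell in meninges, and Hmox1 and Txnrd1 rose and Gclc fell in skull. Groups did not overlap for 3, 7 and 3 of the 10, against 22.2%, 28% and 37.7% of all genes. The median log2 fold change of the 10 was −0.0756, 0.247 and 0.0554, against −0.00313, 0.0172 and −0.00138. Against the 0.5 h libraries, which share the 24 h libraries with these comparisons, 0 of 10 were called in brain (3 at an unadjusted p under 0.05, 0 by DESeq2), 3 in meninges (Hmox1, Gclm and Fth1) and 4 in skull (Txnrd1, Fth1, Gclc and Blvrb), with 0.22%, 2.34% and 16.1% of all genes called. Groups were apart here for 3, 4 and 7 of the 10, against 18.2%, 23.4% and 37.6% of all genes.

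The changes themselves were then compared between tissues. At 0.5 h none of the 10 differed by edgeR between any pair of tissues, with 0.209% of 21500 genes called between skull and brain, 0.0093% between skull and meninges and 0.0093% between meninges and brain; 2, 3 and 1 of the 10 had an unadjusted p under 0.05, and DESeq2 called none. At 24 h the changes of Hmox1, Txnrd1 and Gclc differed between skull and brain (6.71% of genes called) and that of Gclc between meninges and brain (1.32%). Between skull and meninges none of the 10 differed by edgeR or DESeq2 (3 at an unadjusted p under 0.05), with 0.633% of genes called. These comparisons share libraries, and each value stands with its gene below.

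**Figure D2:**
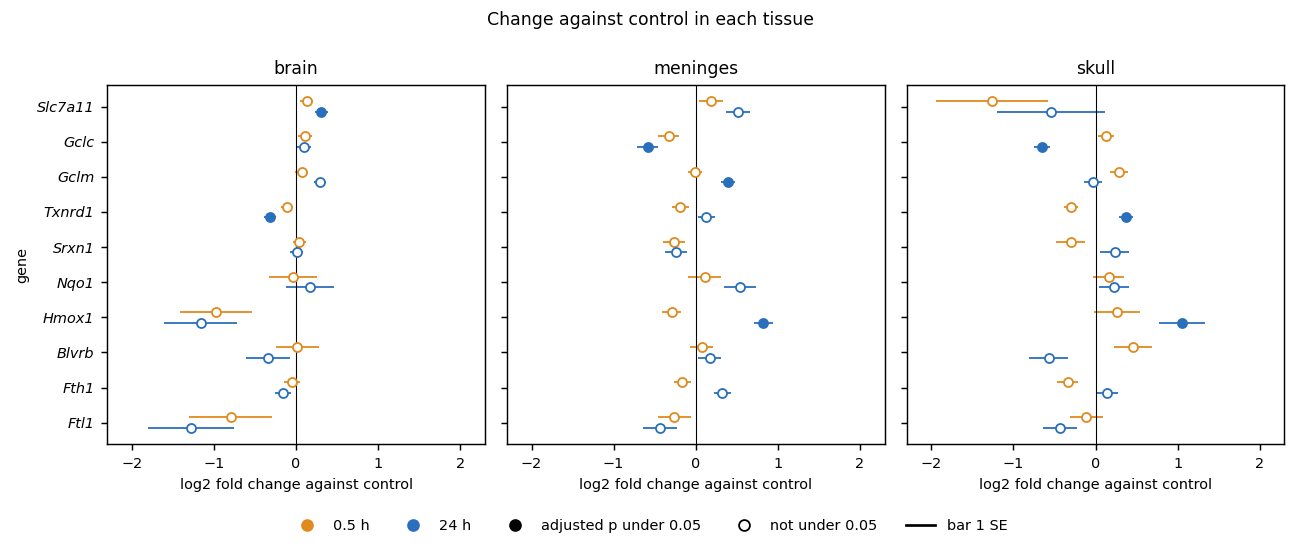
Log2 fold change against control (x axis) of each gene (y axis) at 0.5 h (orange) and 24 h (blue) in brain, meninges and skull; bars are 1 SE, filled points have an edgeR adjusted p under 0.05. No orange point is filled; the filled blue points are Slc7a11 and Txnrd1 in brain, Gclc, Gclm and Hmox1 in meninges and Gclc, Txnrd1 and Hmox1 in skull, and both times share the control libraries.

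Slc7a11 (chromosome 3, 49892526 to 50443614, minus strand) encodes the light chain of the antiporter that brings cystine into the cell for glutathione synthesis. In brain it stood at 67.7, 68.1 and 65.6 CPM in control, at 68.7, 74.6 and 77.3 at 0.5 h and at 91.1, 80.2 and 78.1 at 24 h. All 24 h libraries lay above all others, and the log2 fold change against control was 0.31 ± 0.08 (adjusted p = 0.046). This call ended without any 1 library other than 0.5 h 1 or 24 h 3 (adjusted p from 0.0534 to 0.146), with no robust option (adjusted p = 0.0576) and in the fit of all 27 libraries (adjusted p = 0.803). In meninges it stood at 41.5, 40.3 and 43.7 CPM in control and 56.6, 53.5 and 69.7 at 24 h, without overlap, a log2 fold change of 0.52 ± 0.15 (adjusted p = 0.0528, not called). DESeq2 called it (adjusted p = 0.02), as did fits without meninges 0.5 h 1 (adjusted p = 0.0486) or 0.5 h 3 (adjusted p = 0.0255) and with no filter (adjusted p = 0.0189). In skull levels ran from 2.06 to 16.2 CPM and the groups overlapped.

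Gclc (chromosome 9, 77754535 to 77794485, plus strand) and Gclm (chromosome 3, 122245557 to 122270732, plus strand) encode the catalytic and the modifier subunit of glutamate-cysteine ligase, the first enzyme of glutathione synthesis. The modifier binds the catalytic subunit and raises its activity. In skull Gclc stood at 55.4, 60.3 and 55.9 CPM in control, 58.9, 58.0 and 70.4 at 0.5 h and 36.5, 38.4 and 34.6 at 24 h. The 24 h libraries lay below all 6 others. This gave a log2 fold change of −0.65 ± 0.10 against control (adjusted p = 0.000774) and −0.78 ± 0.10 against 0.5 h (adjusted p = 0.000391), and both calls held in every alternative and with each library left out.

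In meninges Gclc fell as well, from 88.4, 110 and 81.8 CPM in control to 66.0, 57.8 and 62.8 at 24 h, with 75.4, 84.7 and 63.0 at 0.5 h overlapping both. The log2 fold change at 24 h was −0.59 ± 0.13 (adjusted p = 0.0201), and the call ended without control 1, control 2, 24 h 2 or 24 h 3 (adjusted p from 0.0549 to 0.0792). In brain Gclc held 71.1, 61.8 and 66.4 CPM in control and 77.8, 68.9 and 66.3 at 24 h, overlapping groups with a log2 fold change of 0.09 ± 0.09 (adjusted p = 0.608). The 24 h change was lower in skull than in brain by 0.75 ± 0.16 on the log2 scale (adjusted p = 0.0049) and lower in meninges than in brain by 0.71 ± 0.16 (adjusted p = 0.0213). For the second, the call ended without brain control 2, brain 24 h 1, meninges control 2 or meninges 24 h 2 (adjusted p from 0.0538 to 0.0788).

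Gclm was higher at 24 h in meninges, where Gclc was lower. It stood at 63.0, 58.3 and 70.0 CPM in control, 63.6, 66.2 and 60.7 at 0.5 h and 88.7, 80.7 and 80.9 at 24 h, above all others at the last time. The log2 fold change was 0.39 ± 0.09 both against control (adjusted p = 0.0197) and against 0.5 h (adjusted p = 0.0394). The call against control ended without control 1, control 2, 24 h 1 or 24 h 2 (adjusted p from 0.0507 to 0.0912), and that against 0.5 h without any 1 library other than control 2 or control 3 (adjusted p from 0.0595 to 0.139). In brain Gclm held 62.2, 58.4 and 61.2 CPM in control and 74.9, 75.1 and 72.5 at 24 h, without overlap, a log2 fold change of 0.29 ± 0.08 whose adjusted p of 0.0522 missed the threshold; DESeq2 called it (adjusted p = 0.0249). In skull Gclm held 71.4, 64.2 and 56.8 CPM in control, 69.8, 75.6 and 89.6 at 0.5 h and 61.7, 67.1 and 59.6 at 24 h, and no comparison was called by edgeR. From 0.5 h to 24 h the log2 fold change was −0.32 ± 0.11 (adjusted p = 0.0668), which passed in the fit of all 27 libraries (adjusted p = 0.0257), with no filter (adjusted p = 0.0376) and without skull control 3 (adjusted p = 0.0399). Exons of Gclm overlap 296 bases of Gm17494 on the other strand and 244 bases of Gm6061 on its own, and the strand setting of the counting is not given in the sources used here.

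The number of Gclm counts per Gclc count put both subunits on 1 scale within each library. In meninges it was 0.712, 0.531 and 0.856 in control, 0.843, 0.781 and 0.964 at 0.5 h and 1.34, 1.40 and 1.29 at 24 h. In skull it was 1.29, 1.06 and 1.02 in control, 1.18, 1.30 and 1.27 at 0.5 h and 1.69, 1.75 and 1.72 at 24 h. The 24 h libraries lay above all control libraries in both tissues and also in brain, where the mean went from 0.914 ± 0.0358 to 1.05 ± 0.0749. In brain the 24 h and 0.5 h libraries overlapped, with 0.995 in 0.5 h 3 and 0.962 in 24 h 1. An exact permutation test (two-sided, 3 against 3) gave p = 0.1 in each tissue, which is the smallest it can give. As the ratio is of raw counts, it holds no library scaling, and its level depends on the lengths of both messages.

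**Figure D3:**
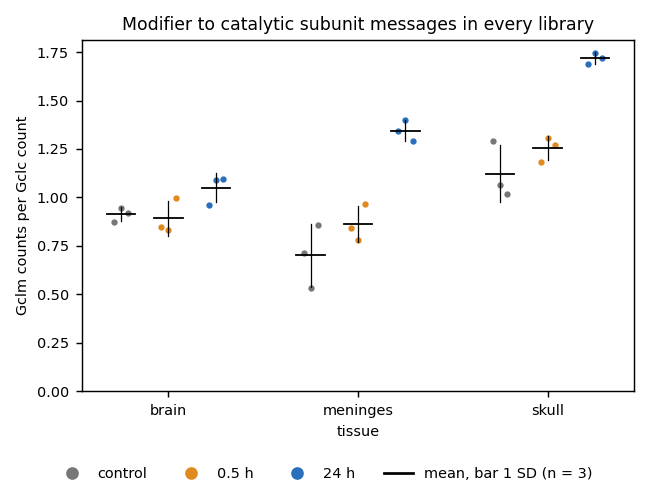
Gclm counts per Gclc count in every library (y axis, linear from 0) by tissue (x axis) and group (grey control, orange 0.5 h, blue 24 h); horizontal marks are means and bars 1 SD of 3 libraries. Means at 24 h are 1.05 in brain, 1.34 in meninges and 1.72 in skull, each with all 3 libraries above those of control.

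Txnrd1 (chromosome 10, 82833951 to 82897712, plus strand) encodes the cytosolic thioredoxin reductase, which spends NADPH to keep thioredoxin reduced. In skull it stood at 113, 99.6 and 118 CPM in control, 91.4, 86.4 and 90.8 at 0.5 h and 143, 131 and 154 at 24 h. The 3 groups were apart, lowest at 0.5 h and highest at 24 h. Its log2 fold change was 0.37 ± 0.09 for 24 h against control (adjusted p = 0.0113) and 0.67 ± 0.09 for 24 h against 0.5 h (adjusted p = 0.000611). The second call held in every alternative, and the first ended without 24 h 3 (adjusted p = 0.0515).

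In brain the change was opposite in sign: 80.0, 83.3 and 77.4 CPM in control, 74.8, 70.5 and 78.0 at 0.5 h and 61.2, 66.9 and 65.4 at 24 h, a log2 fold change of −0.31 ± 0.08 at 24 h (adjusted p = 0.0348). Here the call ended without any 1 library other than 0.5 h 1 or 0.5 h 3 (adjusted p from 0.0513 to 0.118) and in the fit of all 27 libraries (adjusted p = 0.072). The difference of the 24 h change between skull and brain, 0.67 ± 0.13 on the log2 scale, was called (adjusted p = 0.00207) and held with each library left out. In meninges the control libraries held 89.2, 92.6 and 79.4 CPM and the 24 h libraries 91.7, 96.9 and 96.7, with overlap and a log2 fold change of 0.13 ± 0.10 (adjusted p = 0.509).

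Srxn1 (chromosome 2, 152105516 to 152111376, plus strand) encodes sulfiredoxin, which repairs over-oxidised peroxiredoxins. By edgeR it had no call after irradiation in any tissue. In brain all 9 libraries lay between 77.4 and 91.0 CPM. In skull control 3 held 63.5 CPM against 40.0 and 37.8, while the 0.5 h libraries held 41.6, 38.0 and 34.7 and the 24 h libraries 56.2, 49.8 and 59.8. The log2 fold change of 24 h against control was 0.23 ± 0.18 (adjusted p = 0.395), and without control 3 it was 0.51 (adjusted p = 0.00787). Against 0.5 h it was 0.54 ± 0.18 (adjusted p = 0.066), which passed by DESeq2 (adjusted p = 0.0288).

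Nqo1 (chromosome 8, 107388225 to 107403206, minus strand) encodes a quinone reductase and is a much used readout of NRF2 activity. It was not called after irradiation in any tissue. In meninges the 24 h libraries spread from 15.8 to 22.5 and 30.7 CPM, while control held 16.2, 17.1 and 14.2, so 24 h 2 lay among the controls. A log2 fold change of 0.54 ± 0.20 (adjusted p = 0.128) resulted, which became 0.75 without 24 h 2 (adjusted p = 0.03). Choroid plexus markers summed to 541 CPM in 24 h 2, 4261 in 24 h 3 and 15760 in 24 h 1, the order of Nqo1 in these libraries, and to 443, 5019 and 6805 in control 1, 2 and 3; their part in the Nqo1 values was not tested. In skull the means were 5.38, 6.01 and 6.30 CPM in control, at 0.5 h and at 24 h, and in brain 3.18, 3.12 and 3.61.

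Hmox1 (chromosome 8, 75093621 to 75100589, plus strand) encodes the inducible heme oxygenase. In meninges it stood at 35.3, 38.9 and 43.9 CPM in control, 35.9, 31.7 and 28.8 at 0.5 h and 70.7, 63.1 and 75.0 at 24 h. Every 24 h library lay above all others, and the log2 fold change was 0.82 ± 0.12 against control (adjusted p = 0.00235) and 1.11 ± 0.12 against 0.5 h (adjusted p = 0.00149). Both calls held with each library left out and ended in the fit of all 27 libraries (adjusted p = 0.133 and 0.0752), where the spread of the other tissues enters.

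In skull Hmox1 stood at 65.7, 74.5 and 41.5 CPM in control, 56.4, 60.1 and 102 at 0.5 h and 111, 127 and 139 at 24 h. The 24 h libraries again lay above all others, with 0.5 h 3 next. Against control the log2 fold change was 1.05 ± 0.28 (adjusted p = 0.0365), a call that ended without control 1, control 3 or any 1 of the 3 libraries at 24 h (adjusted p from 0.0688 to 0.0996) and with no filter on low counts (adjusted p = 0.0884). Against 0.5 h it was 0.79 ± 0.28 (adjusted p = 0.104), and 1.11 without 0.5 h 3 (adjusted p = 0.0196); DESeq2 called it with all libraries in (adjusted p = 0.00938), as did the fit with no robust option (adjusted p = 0.0479).

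In brain Hmox1 held 15.7 CPM in control 1, 4.06 and 5.34 in the other controls, 4.51, 4.59 and 3.95 at 0.5 h and 3.15, 3.94 and 4.36 at 24 h. The log2 fold change at 24 h, −1.16 ± 0.44 (adjusted p = 0.203), became −0.30 without control 1 (adjusted p = 0.685). With no filter on low counts it was called at 24 h (adjusted p = 0.000554) and at 0.5 h (log2 fold change −0.98, adjusted p = 0.0355), with control 1 in the fit. The 24 h change was higher in skull than in brain by 2.23 ± 0.50 on the log2 scale (adjusted p = 0.0101) and by 1.34 ± 0.35 without brain control 1 (adjusted p = 0.0306). It was higher by 1.98 ± 0.50 in meninges than in brain, which missed the threshold (adjusted p = 0.0574), was called by DESeq2 (adjusted p = 0.00259) and was 1.09 without brain control 1 (adjusted p = 0.176). Skull and meninges differed by 0.25 ± 0.45 (adjusted p = 0.927), which does not show that their changes were alike.

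Blvrb (chromosome 7, 27447978 to 27466144, plus strand) encodes biliverdin reductase B and did not follow Hmox1. In skull it stood at 53.1, 55.6 and 40.8 CPM in control, 50.1, 64.9 and 90.0 at 0.5 h and 28.4, 42.4 and 30.2 at 24 h. It fell from 0.5 h to 24 h by 1.02 ± 0.24 on the log2 scale (adjusted p = 0.0212), without overlap, and the call ended without 0.5 h 2, 24 h 1 or 24 h 3 (adjusted p from 0.0548 to 0.0821). With no filter on low counts it ended too (adjusted p = 0.0769). Against control the 24 h change was −0.57 ± 0.24 (adjusted p = 0.128 by edgeR and 0.0439 by DESeq2). In meninges all libraries lay between 24.3 and 36.3 CPM and in brain between 3.05 and 6.46, the last in control 1, with no call.

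Erythroid markers moved with Blvrb in skull: they summed to 5250 to 5910 CPM in control, 6030 to 9620 at 0.5 h and 3160 to 5000 at 24 h. From 0.5 h to 24 h 11 of the 12 tested fell and 0 rose, where 16.1% of all genes were called. At 24 h against control 3 of the 12 fell and 0 rose, where 20.9% of all genes were called. None of the 12 was at 0 in skull. The library with the highest erythroid sum, 0.5 h 3, was also the highest of its group for both Blvrb and Hmox1. At 24 h the erythroid sum was lowest of the 3 groups while Hmox1 was highest. The 14 macrophage markers summed to 866 to 1250 CPM in control and 819 to 931 at 24 h in skull. Of these 0 rose and 5 fell at 24 h against control, and 0 rose and 2 fell against 0.5 h. In meninges macrophage markers summed to 1340 to 1880 in control and 1610 to 2110 at 24 h, where 2 rose and 1 fell. Erythroid markers there summed to 1780 to 2400 and 1550 to 1930, and none of 12 was called by edgeR. Of all genes 8.42% were called in that comparison. The part of these cells in the changes of Hmox1 and Blvrb was not tested.

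**Figure D4:**
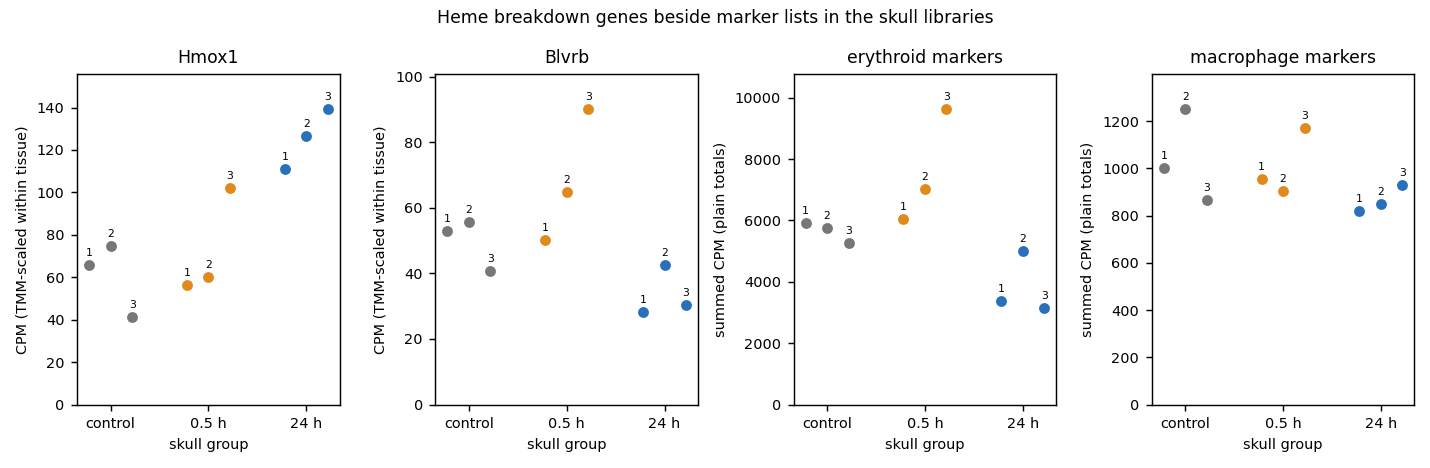
Hmox1 and Blvrb (TMM-scaled CPM) beside the summed CPM of erythroid and of macrophage markers in the 9 skull libraries, by group on the x axis (grey control, orange 0.5 h, blue 24 h); the number above each point is the replicate, and all y axes are linear from 0. Hmox1 is highest at 24 h (111 to 139 CPM), where Blvrb (28.4 to 42.4 CPM) and the erythroid sum (3160 to 5000 CPM) are lowest.

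Fth1 (chromosome 19, 9980598 to 9985098, plus strand) encodes the heavy chain of ferritin, which oxidises iron as it enters the shell. In meninges it stood at 1251, 1332 and 1439 CPM in control, 1217, 1140 and 1234 at 0.5 h and 1664, 1592 and 1779 at 24 h. In skull it held 1029, 1006 and 1200 in control, 822, 805 and 928 at 0.5 h and 1137, 1004 and 1431 at 24 h. It rose from 0.5 h to 24 h by a log2 fold change of 0.49 ± 0.10 in meninges (adjusted p = 0.0307) and 0.48 ± 0.13 in skull (adjusted p = 0.0283), in both tissues without overlap. In meninges the call ended without control 2, any 0.5 h library, 24 h 2 or 24 h 3 (adjusted p from 0.0648 to 0.133), and in skull without 0.5 h 1, 0.5 h 2, 24 h 1 or 24 h 3 (adjusted p from 0.0653 to 0.126). Against control the 24 h change was 0.32 ± 0.10 in meninges (adjusted p = 0.0707, and 0.00195 by DESeq2) and 0.14 ± 0.13 in skull (adjusted p = 0.492). In brain Fth1 lay between 845 and 1203 CPM with overlap in all comparisons.

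Ftl1 (chromosome 7, 45457944 to 45459884, minus strand) encodes the light chain, which seeds the iron core. Only 11 to 182 counts per library were assigned to it, against 12354 to 28981 for Fth1, a ratio from 99.8 to 1470. Of its transcript's stretches of 100 bases, 78.6% occur unchanged in other annotated genes, most of them in the pseudogene Ftl1-ps1, whereas 0.964% do for Fth1 and 0% for Hmox1, Nqo1, Gclc, Gclm, Srxn1, Txnrd1 and Blvrb. How the counting treated reads that match several genes is not given in the sources used here, so the level of Ftl1 is uncertain. The pseudogenes themselves held few counts, at most 20 for Ftl1-ps1 and 26 for Ftl2-ps in any library. As counted, brain control 1 held 6.65 CPM against at most 2.56 in the other controls, and no comparison after irradiation was called by edgeR with the filter on low counts; with no filter the 24 h change in brain was (log2 fold change −1.28, adjusted p = 0.0134). The untreated difference of skull and brain, 1.27 ± 0.36 on the log2 scale (adjusted p = 0.00303), was 2.00 without brain control 1, and that of meninges and brain, 1.01 ± 0.36 (adjusted p = 0.0161), was 1.74; this second call ended without brain control 2 (adjusted p = 0.0805), brain control 3 (adjusted p = 0.0931) or meninges control 3 (adjusted p = 0.0504).

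The genes around these 10 were read from 6 lists with 155 symbols, of which 150 are in the table. At 24 h against control 1 rose and 3 fell of 135 tested in brain, 7 rose and 10 fell of 144 in meninges and 20 rose and 18 fell of 146 in skull, beside 2.62%, 8.42% and 20.9% of all genes called in either direction. At 0.5 h no list gene of 135 was called in brain by edgeR, 3 of 144 fell in meninges, and 1 rose and 9 fell of 146 in skull. Over all genes 0.0055%, 0.874% and 4.9% were called at that time. The list medians at 24 h, −0.0447, 0.0155 and 0.0106 on the log2 scale, stood beside −0.00313, 0.0172 and −0.00138 over all genes tested.

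Of 14 regulators of NRF2, none rose and 4 fell in meninges at 24 h against control (8.42% of all genes called), and 1 rose and 6 fell in skull (20.9% called). Among them were the small MAF genes: Maff fell from 43.0 ± 4.07 to 7.91 ± 0.992 CPM in meninges at 24 h (log2 fold change −2.44 ± 0.16, adjusted p = 6.18e-05), and from 23.1 ± 4.01 to 3.19 ± 0.331 in skull (−2.85 ± 0.24, adjusted p = 2.06e-05). Mafk fell from 79.0 ± 1.92 to 30.7 ± 4.81 CPM in meninges (log2 fold change −1.36 ± 0.11, adjusted p = 0.000119) and from 96.5 ± 6.85 to 36.4 ± 2.86 in skull (−1.41 ± 0.11, adjusted p = 1.16e-05). Both were also called lower in brain at 24 h (adjusted p = 0.000435 for Maff and 0.0305 for Mafk) and in meninges and skull at 0.5 h. The Mafk call in brain ended without control 1, control 3, 24 h 1 or 24 h 2 (adjusted p from 0.0505 to 0.152). Small MAF proteins pair with NRF2 and with BACH proteins alike.

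Nfe2l2 itself had a log2 fold change at 24 h of 0.29 ± 0.08 in skull (adjusted p = 0.0269), 0.24 ± 0.07 in meninges (adjusted p = 0.0533) and −0.06 ± 0.18 in brain (adjusted p = 0.897). The skull call ended without control 1, control 2, 24 h 1 or 24 h 3 (adjusted p from 0.0702 to 0.0948) and in the fit of all 27 libraries (adjusted p = 0.0985). Keap1 was not called in any comparison within a tissue, and its 24 h values were 0.23 ± 0.11 in skull (adjusted p = 0.144, and 0.0325 without control 2), 0.12 ± 0.10 in meninges and −0.23 ± 0.12 in brain. Bach1, the heme-sensing repressor of Hmox1, fell in skull from 105 ± 7.52 to 76.5 ± 5.89 CPM at 24 h (log2 fold change −0.45 ± 0.09, adjusted p = 0.00582, and 0.0582 in the fit of all 27 libraries) and stood at −0.41 ± 0.15 in meninges (adjusted p = 0.133) and −0.04 ± 0.19 in brain (adjusted p = 0.93). In skull Bach1 was already at 76.4 ± 7.13 CPM at 0.5 h (−0.45 ± 0.09 against control, edgeR adjusted p = 0.0202). That 0.5 h call ended without control 3, 0.5 h 1 or 0.5 h 2 (adjusted p from 0.0612 to 0.105) and in the fit of all 27 libraries (adjusted p = 0.126). From 0.5 h to 24 h the Bach1 change in skull was 0.0004 ± 0.094 (adjusted p = 0.999). Bach2 fell in skull from 49.8 ± 4.08 to 16.4 ± 4.50 CPM (adjusted p = 0.000151). Sqstm1, the autophagy receptor that binds KEAP1, fell in meninges from 439 ± 12 to 299 ± 17.4 CPM (adjusted p = 0.00254).

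Among thioredoxin and peroxidase genes, Txnip and Sesn1 had the smallest p-values at 24 h against control in skull. Txnip, which encodes a protein that binds and inhibits thioredoxin, fell from 612 ± 53.7 to 216 ± 18.3 CPM in skull (log2 fold change −1.50 ± 0.10, adjusted p = 4.87e-06), from 749 ± 24.7 to 360 ± 38.3 in meninges (−1.06 ± 0.10, adjusted p = 0.000205) and from 40.3 ± 6.03 to 12.1 ± 1.41 in brain (−1.74 ± 0.15, adjusted p = 1.54e-05). Sesn1, a sestrin, fell from 144 ± 6.80 to 47.7 ± 2.27 CPM in skull (adjusted p = 8.53e-07) and from 203 ± 16.6 to 99.4 ± 4.63 in meninges (adjusted p = 0.000101). Prdx1, a peroxiredoxin, rose from 0.5 h to 24 h in skull (log2 fold change 0.68 ± 0.07, adjusted p = 0.000151). Of the 24 genes of this list 3 rose and 7 fell in skull at 24 h against control (20.9% of all genes called), and 1 rose and 2 fell in meninges (8.42% called). Txn1, thioredoxin itself, fell in skull at 0.5 h (log2 fold change −0.55 ± 0.09, adjusted p = 0.00591).

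In the list of NADPH and detoxification genes 7 rose and 1 fell of 32 in skull at 24 h, and 3 rose and 2 fell of 30 in meninges, where 20.9% and 8.42% of all genes were called; in skull the list is near that share. Akr1b8, an aldo-keto reductase, rose from 7.51 ± 1.33 to 18.3 ± 2.38 CPM in skull (log2 fold change 1.29 ± 0.18, adjusted p = 0.000635) and from 5.57 ± 0.424 to 10.3 ± 1.26 in meninges (0.89 ± 0.18, adjusted p = 0.0138). In the fit of all 27 libraries neither Akr1b8 call held (adjusted p = 0.0593 and 0.28), and that in meninges ended without control 1 (adjusted p = 0.0529) or 24 h 2 (adjusted p = 0.0601). Idh1, which makes cytosolic NADPH, rose by 0.53 ± 0.08 in skull (adjusted p = 0.000767) and 0.41 ± 0.07 in meninges (adjusted p = 0.00537). Aldh3a1 fell in meninges from 26.8 ± 1.64 to 10.6 ± 2.99 CPM (adjusted p = 0.00226). Of the glutathione enzymes 1 of 34 rose in skull and 1 of 34 fell in meninges at 24 h, beside the same 20.9% and 8.42%. In brain 1 of 31 rose, near the 2.62% of all genes called there. It was the glutaredoxin gene Glrx2 (log2 fold change 0.32 ± 0.08, adjusted p = 0.0471). That call ended without any 1 library other than 24 h 2 (adjusted p from 0.0503 to 0.153).

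Among genes for heme synthesis, transport and breakdown 3 of 15 rose in meninges and 1 of 15 in skull at 24 h against control, and none fell, where 8.42% and 20.9% of all genes were called. These counts were not stable: in meninges 0 to 2 were called without 1 library and 2 with no robust option, and in skull 0 to 3 without 1 library. Those below were named after their values were seen. Alas1, the enzyme that starts heme synthesis outside red cell precursors, rose in both, from 55.2 ± 2.71 to 69.5 ± 6.44 CPM in meninges (log2 fold change 0.33 ± 0.09, adjusted p = 0.0483) and from 55.5 ± 12.3 to 81.9 ± 13.3 in skull (0.56 ± 0.17, adjusted p = 0.04). The other risers in meninges were the heme transporter genes Slc48a1 (0.27 ± 0.06, adjusted p = 0.0269) and Flvcr1 (0.56 ± 0.15, adjusted p = 0.038). In skull Fech, which inserts iron into the porphyrin ring to make heme, was the 1 riser of 15 at 0.5 h (0.43 ± 0.11, adjusted p = 0.0479), where 4.9% of all genes were called. No gene of the list was called there under RLE scaling or with no robust option, and 0 to 1 without 1 library. From 0.5 h to 24 h in skull 1 of 15 rose and 3 fell, where 16.1% of all genes were called. The riser was Flvcr1 (0.42 ± 0.12, adjusted p = 0.0335). Fech fell (−0.71 ± 0.11, adjusted p = 0.00182), as did Alas2, the erythroid enzyme that starts heme synthesis (−1.10 ± 0.26, adjusted p = 0.0263). Cd163, the macrophage receptor for haemoglobin bound to haptoglobin, fell too (−0.80 ± 0.16, adjusted p = 0.0069). Alas2 and Cd163 are also in the erythroid and macrophage marker lists.

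For iron uptake, storage and export 7 rose and 4 fell of 27 in skull and 1 fell of 27 in meninges at 24 h against control, where 20.9% and 8.42% of all genes were called. Steap1, of a family of metalloreductases, rose in skull from 0.672 ± 0.342 to 4.17 ± 0.451 CPM (adjusted p = 0.00108, and 0.0665 in the fit of all 27 libraries). From 0.5 h to 24 h, Scara5, which takes up ferritin, fell in skull (log2 fold change −1.05 ± 0.14, adjusted p = 0.000693).

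The genes whose levels ran most like Hmox1 over the 27 libraries, with each tissue's mean taken off log2(CPM + 1), were Ulbp1 (Pearson r 0.87), Ddx39a (0.84), Gtse1 (0.83), Ckap2 (0.83) and Mcm6 (0.83). Within the single tissues r for Ulbp1 was 0.93 in brain, 0.79 in meninges and 0.86 in skull. In brain Hmox1 held 15.7 CPM in control 1 and 3.15 to 5.34 in the other 8 libraries, so the brain value leans on 1 library. Among the other 9 of the 10 genes the values ran from −0.45 for Gclc to 0.53 for Txnrd1, with 0.49 for Fth1 and 0.10 for Blvrb. The libraries share their groups, depth and dissection, so these values are descriptions without a test.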

How the data were processed

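Poly(A) RNA from 27 mouse libraries (9 groups of 3) was read from 1 table of counts per gene that the authors deposited; alignment used HISAT2 2.1.0 and the build mm10, per the submitters' processing notes, while the counting tool, annotation, strand setting and treatment of reads matching several genes were not stated in the sources used here. No row lacked a gene name and no 2 libraries were identical. Library totals of 14.2 M to 27.3 M set the precision. Counts were tested with edgeR 4.0.16 (quasi-likelihood F test, TMM scaling, filterByExpr with a minimum count of 10 and minimum total of 15, robust option; R 4.3.3, limma 3.58.1) and adjusted by Benjamini-Hochberg over all genes tested in a comparison, threshold 0.05. Comparisons after irradiation used the 9 libraries of a tissue; the 60 differences of changes between tissues (6 comparisons of 10 genes) and the untreated levels used 1 fit of all 27. The standard error is the log2 fold change divided by the square root of F. The code was run on counts simulated from the means and spreads that edgeR had estimated. Such a run checks the code and cannot show how well the test suits these data.

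All 10 genes are named throughout. Of the pathway lists, Nfe2l2, Keap1, Bach1 and up to 8 called genes with the smallest p and a mean of at least 1 CPM could be named in each comparison. The genes and lists were chosen with earlier results of these data known. The 14 marker lists were summed as CPM on plain totals. Alternatives were RLE scaling, no filter on low counts, TMM factors from a table stripped of haemoglobin and mitochondrial genes, DESeq2 1.42.0, edgeR with its robust option off, the replicate number as a block, 1 fit of all 27 libraries and leaving out each library. Gene positions and transcripts came from GENCODE M21 (GRCm38) and promoter windows from RefSeq (GRCm38.p6). Plots used matplotlib 3.10.9.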

Additional observations from a re-analysis of the deposited data

Results flagged for a closer look

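Of the 60 differences tested between tissues, 4 passed the edgeR test, all of them in the change from control to 24 h. The changes of Hmox1 and Txnrd1 were higher in skull than in brain by 2.23 and 0.675 on the log2 scale (adjusted p = 0.0101 and 0.00207). The change of Gclc differed from that of brain by −0.754 in skull and −0.706 in meninges (adjusted p = 0.0049 and 0.0213). Over all genes tested, 6.71% were called between skull and brain and 1.32% between meninges and brain. Both differences from brain share the brain libraries, and without brain control 1 the Hmox1 value was 1.34.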

How the results depend on the processing

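Of 15 calls of the 10 genes within a tissue, 5 held with each library left out, 7 under each of the other alternatives and 3 under all: Gclc in skull at 24 h against control and against 0.5 h, and Txnrd1 in skull at 24 h against 0.5 h. No value of a called gene changed sign. With no filter on low counts the called genes numbered 1 in brain at 0.5 h (0 with it), 5 in brain at 24 h (2 with it) and 5 in meninges at 24 h (3 with it). DESeq2 called 5 in meninges at 24 h, 1 in skull at 0.5 h and 2 for meninges minus brain at 24 h (1 by edgeR). With no robust option 1 was called in brain at 24 h and 2 for meninges minus brain, and in the fit of all 27 libraries 0 in brain at 24 h.

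Leaving out 1 library gave 0 to 2 called genes in brain, 1 to 4 in meninges and 1 to 3 in skull at 24 h against control. Against 0.5 h it gave 1 to 3 in meninges and 2 to 6 in skull, and for skull at 0.5 h 0 to 1. For the differences at 24 h it gave 3 to 3 between skull and brain, 0 to 1 between skull and meninges and 0 to 2 between meninges and brain.

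Replicate numbers recur across groups, but same-numbered libraries of a tissue correlated above 0.1 in 4 of 27 pairs (median r −0.00705) and those of different tissues in 8 of 81 (median r 0.0134, highest 0.297). The numbers were therefore not treated as pairs; whether a number marks 1 animal across tissues is not known. With the replicate block 0 genes were called in brain at 24 h, 1 in meninges at 24 h against 0.5 h (3 without it) and 2 in skull at 24 h against control (3 without it), and heme list genes went from 3 to 1 in meninges and from 1 to 0 in skull at 24 h, and from 1 to 0 in skull at 0.5 h.

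Over all genes, the counts behind the background shares moved by over 1.5 times in several comparisons. Without 1 library the lowest counts were 17 (162 with all) in meninges and 112 (854) in skull at 0.5 h, and at 24 h 153 (477) in brain, 727 (1561) in meninges and 2223 (3649) in skull. They moved with no filter from 477 to 1214 in brain at 24 h, with DESeq2 from 477 to 877 in brain at 24 h, from 162 to 606 in meninges and from 854 to 1536 in skull at 0.5 h, and with the block from 1561 to 1030 in meninges at 24 h. In brain at 0.5 h the count went from 1 to 100 with no filter and to 15 with DESeq2. For brain at 24 h against 0.5 h it went from 40 to 438 and to 228. DESeq2 moved meninges at 24 h against 0.5 h from 434 to 1039. Among the differences at 24 h, DESeq2 moved meninges minus brain from 283 to 812 and skull minus meninges from 136 to 416. Other scaling moved the median of all genes by at most 0.0996 in size on the log2 scale. Depth limits most the genes of few counts: Ftl1 in all tissues, Nqo1, Blvrb and Hmox1 in brain, and Nqo1 and Slc7a11 in skull.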
